A study of Homo sapiens with 6 samples.

Results

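Of the 58735 genes in the deposited tables, 10 were followed here: the matrix metalloproteinase genes MMP1, MMP2, MMP3, MMP9, MMP13, MMP14 and MMP15, and the inhibitor genes TIMP1, TIMP2 and TIMP3. They were taken by gene name from a list of enzymes and inhibitors, and each name matched a single row. The cells were of the MDA-MB-231 line, established from a triple-negative breast cancer and of unmodified genotype (labelled WT), grown in DMEM with fetal bovine serum. Every culture had been stained with PKH26, a membrane dye that is diluted at each division, and was followed for 12 days before sorting. Slow-cycling cells (SCC, labelled PKH26hi) were the brightest 1%, and rapid-cycling cells (RCC) were labelled PKH26lo, although the protocol describes their brightness as moderate. Each group had 3 biological replicates, and unstained or unsorted cells were not analysed here, so both groups carry the stain and the sort.

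Matrix metalloproteinases (MMPs) are zinc-dependent enzymes that cut collagens and other proteins of the extracellular matrix. Most are secreted as inactive proenzymes, while the membrane-type enzymes are anchored at the cell surface. Tissue inhibitors of metalloproteinases (TIMPs) bind the active site and block it, and TIMP2 also takes part, with MMP14, in activating the proenzyme of MMP2. Transcription of several secreted MMPs is known to respond to the AP-1 factors, dimers of JUN and FOS proteins that the series title names.

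The RefSeq promoter table held 4 of the 10 genes: MMP14, MMP15, TIMP1 and TIMP3. Their sequences are shown because the other genes had no entry there. All 4 had higher mean levels in SCC in the values given below. The 250 bases before the RefSeq start of each gene were searched on both strands for the AP-1 consensus TGANTCA, for the AP-1-like variant TGAGTAA and for the GC box GGGCGG, motifs that do not overlap each other here. The variant was added to the search after it had been seen in the TIMP1 sequence. Of the 35116 promoters of that length in the table, 6.57% held the consensus, 2.21% the variant and 42.6% the GC box. None of the 4 windows held TGANTCA, TIMP1 held 1 match to the variant, and all 4 held at least 1 GC box. The stretches below are on the plus strand of GRCh38.p14 and have the matches in capitals. Those of MMP14, TIMP3 and MMP15 end before the GENCODE gene start, whereas that of TIMP1 lies before the RefSeq start (47582436) but after the GENCODE gene start (47582313). The MMP14 stretch is chr14:22836335-22836556, that of TIMP3 is chr22:32801455-32801700, that of MMP15 is chr16:58025504-58025565, and that of TIMP1 holds the variant with its flanks, at chrX:47582323-47582352.
MMP14: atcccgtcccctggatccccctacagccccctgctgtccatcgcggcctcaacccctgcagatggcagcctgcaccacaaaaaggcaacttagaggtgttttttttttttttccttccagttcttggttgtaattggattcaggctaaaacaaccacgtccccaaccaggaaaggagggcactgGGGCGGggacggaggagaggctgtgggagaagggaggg
TIMP3: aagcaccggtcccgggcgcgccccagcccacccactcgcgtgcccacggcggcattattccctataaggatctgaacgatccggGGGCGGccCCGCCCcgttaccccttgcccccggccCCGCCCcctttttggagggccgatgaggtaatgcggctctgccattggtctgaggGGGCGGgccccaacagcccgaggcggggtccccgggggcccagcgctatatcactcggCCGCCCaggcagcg
MMP15: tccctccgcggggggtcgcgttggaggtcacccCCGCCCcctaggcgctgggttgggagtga
TIMP1: atggtgggtggaTGAGTAAtgcatccagga

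The summed counts per library lay between 19498054 and 27831824 for SCC, and between 17655855 and 22746267 for RCC. SCC replicate 1, the deepest library, stood apart by GC content. In the tenth of tested genes with the highest GC content (median 63.9%), its median log2 deviation from the mean of the 6 libraries was 0.38, against -0.15 to 0.02 in the other libraries. Results are therefore also given with an offset for GC content and without this library. All 6 markers of the line, among them VIM and CD44, were detected, at a summed 4095 to 4139 CPM (counts scaled to a common library total) in SCC and 3942 to 4191 in RCC. Of the receptors that define the triple-negative class, ESR1 was at most 0.70 CPM and PGR at most 0.13, while ERBB2 was at 71.3 to 106 CPM. Summed fibroblast markers were at 23.9 to 28.9 CPM in SCC and 19.1 to 22.8 in RCC, mostly COL1A1 and PDGFRB, with DCN at 0 to 0.19 CPM. Summed leukocyte markers were at 2.20 to 6.05 CPM in SCC and 1.87 to 2.68 in RCC, the highest in SCC replicate 1.

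Measured per length, as FPKM, the family fell into genes of high and of very low level in both groups. MMP14 was highest, with 52.0 ± 5.33 FPKM (SD, n = 3) in SCC against 40.2 ± 0.71 in RCC. TIMP2 followed in SCC at 43.3 ± 1.13 FPKM and was at 38.5 ± 0.70 in RCC, and TIMP1 was at 42.3 ± 1.29 and 38.9 ± 1.12. The libraries of TIMP1 and TIMP2 overlapped in both groups. MMP14 lay above all TIMP2 libraries in SCC, whereas in RCC its libraries, from 39.6 to 41.0 FPKM, overlapped those of TIMP1, from 37.6 to 39.8. TIMP3 was at 13.2 ± 0.23 FPKM in SCC and 11.3 ± 0.12 in RCC, separate from its neighbours in the order. MMP15 was near 1 FPKM, and the other 5 MMPs were all under 1 FPKM in every library.

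**Figure D1:**
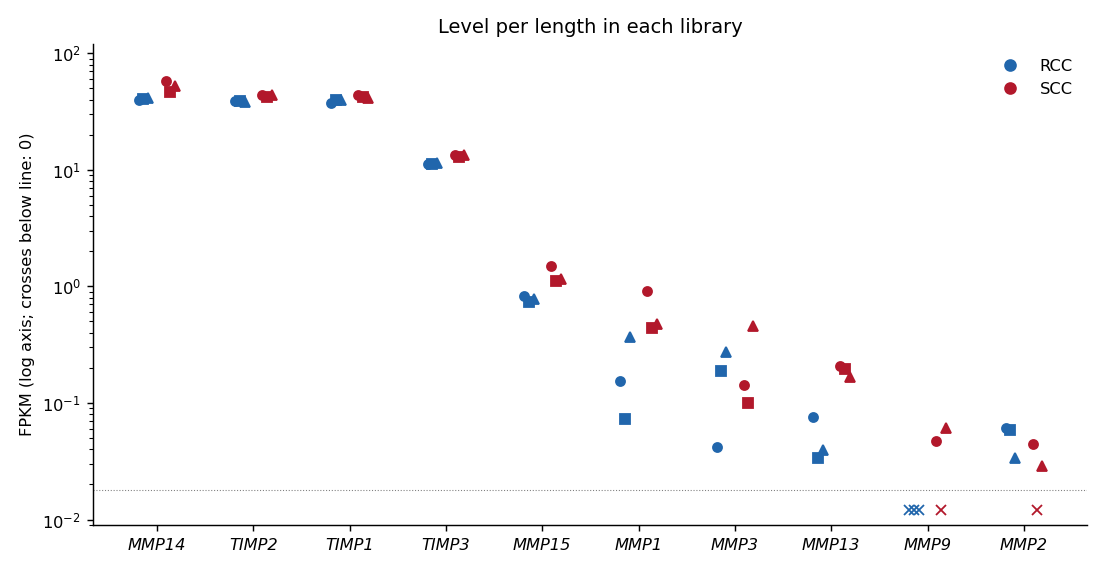
FPKM of each gene (log axis) in the 3 RCC (blue) and 3 SCC (red) libraries; circles, squares and triangles are replicates 1, 2 and 3, and crosses below the dotted line are libraries at 0. MMP14, TIMP2, TIMP1 and TIMP3 sit above 10 FPKM, and MMP2, MMP3, MMP9 and MMP13 below 0.5.

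The test of SCC against RCC, edgeR's quasi-likelihood test with Benjamini-Hochberg adjustment over 15881 genes, called 1 of the 10 genes higher (MMP14) and 0 lower at an adjusted p under 0.05. Among all tested genes 1.69% were called higher and 0.378% lower. Of the 10, 6 had enough counts to be tested. DESeq2 gave no adjusted p for MMP1 and called 0 of the other 5 lower. Before adjustment (p under 0.05), 5 of the 6, all but TIMP1, were higher and 0 were lower, and over all tested genes 11.4% were higher and 8.27% lower. In those 6, every SCC library lay above every RCC library; among all tested genes, 14.4% showed this. MMP1 passed the filter through its SCC libraries, so its direction among these was set by the filter. The other 5, MMP14, MMP15, TIMP1, TIMP2 and TIMP3, passed it in both groups. In bulk RNA a higher level in each cell and more cells that express the gene cannot be told apart.

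**Figure D2:**
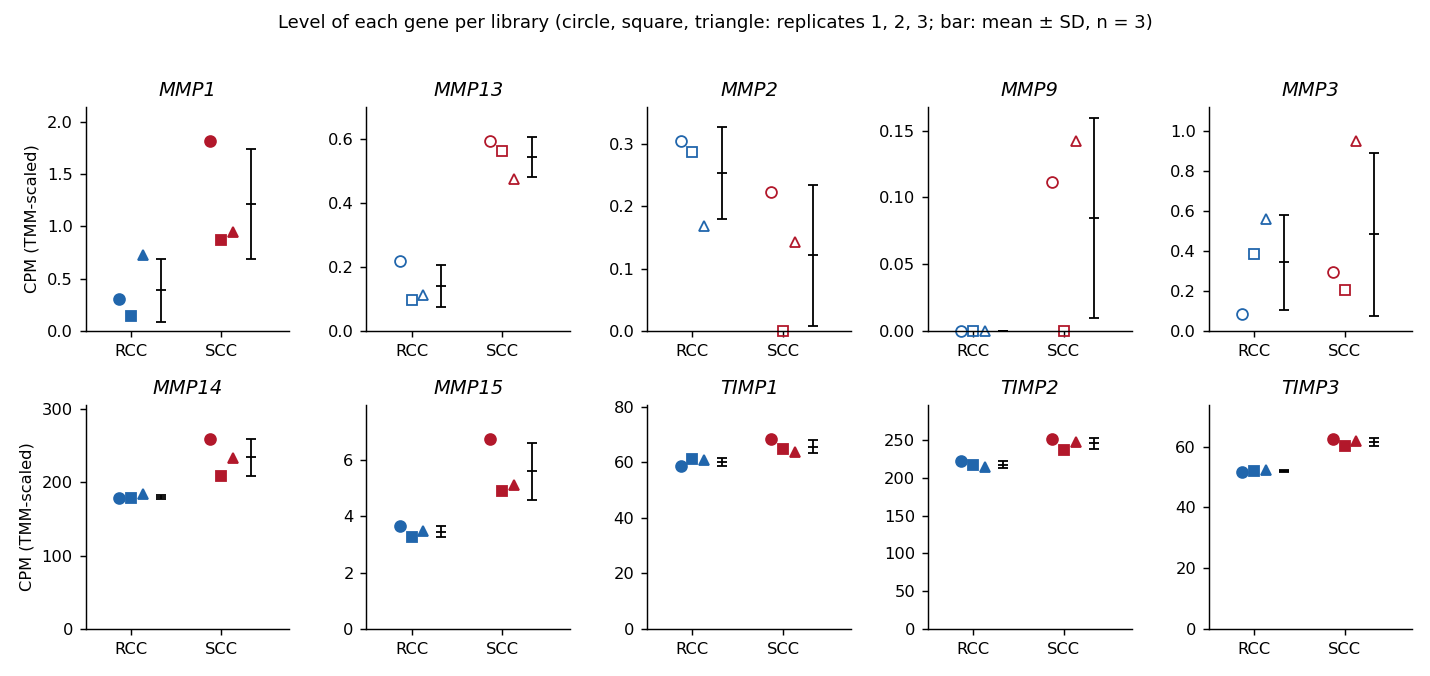
CPM of each gene (y axes from 0, scaled per gene) in RCC (blue) and SCC (red), with the mean ± SD over 3 libraries; open symbols mark genes with too few counts for the test. MMP14 is at 178 to 184 CPM in RCC and at 209 to 259 in SCC.

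MMP14 (ENSG00000157227, chromosome 14, 22836557 to 22849027, GRCh38) encodes MT1-MMP, the membrane-type enzyme that cuts fibrillar collagen at the cell surface. It was at 259, 209 and 234 CPM in SCC replicates 1 to 3 and at 178, 179 and 184 CPM in RCC replicates 1 to 3. The SCC libraries were all higher and more spread than the RCC libraries, and SCC replicate 1 was the highest. The SCC mean of 234 ± 25.2 CPM stood against 180.2 ± 3.14 CPM for RCC (SD, n = 3), a fitted difference of 1.30-fold. On the log2 scale the fitted difference was 0.38 (standard error, SE, 0.081; edgeR adjusted p 0.042). With the GC offset, under which 3.29% of genes were called higher, it was 0.22 (adjusted p 0.011), and without SCC replicate 1, where 3.93% were, it was 0.30 (adjusted p 2.6e-04). MMP14 lost the call when SCC replicate 3 (adjusted p 0.111) or RCC replicate 1 (0.203), 2 (0.178) or 3 (0.166) was left out, and in limma on FPKM values (0.114 to 0.303), with log2 fold changes between 0.36 and 0.38.

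MMP15 (ENSG00000102996, chromosome 16, 58025566 to 58046901) encodes MT2-MMP, a second membrane-type enzyme. It was at 6.75, 4.91 and 5.12 CPM in SCC replicates 1 to 3 and at 3.65, 3.25 and 3.47 CPM in RCC. SCC replicate 1 was again the highest, and the groups did not overlap. The log2 fold change of 0.70 (SE 0.18) did not pass the threshold (edgeR adjusted p 0.077). MMP15 has the highest GC content of the 10 genes, at 66.0% of its longest transcript, and the GC offset brought the value to 0.40 (adjusted p 0.165). DESeq2, which called 3.38% of genes higher, called it (adjusted p 0.046). So did the fit without SCC replicate 2, which called 3.57% higher (0.042), and the fit of all genes with any count, which called 2.65% higher (0.017). These were 3 of 17 alternative fits. MMP15 was not called without SCC replicate 1 (log2 fold change 0.54, edgeR adjusted p 0.115) or in limma on FPKM values (0.202 to 0.484).

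The fitted log2 fold changes of the 3 inhibitors were smaller than those of both membrane-type enzymes, except for TIMP3 with the GC offset. There, without and with a block for the replicate number, TIMP3 (0.24 in both fits) was above MMP14 (0.22 in both). The contrast between inhibitors and enzymes was not itself tested. TIMP3 (ENSG00000100234, chromosome 22, 32801701 to 32863043) encodes the inhibitor that stays bound to the matrix. It was at 62.5, 60.02 and 61.7 CPM in SCC and at 51.6, 51.8 and 52.4 CPM in RCC. Libraries of a group lay close together and the groups were apart. The log2 fold change of 0.24 (SE 0.069) gave an edgeR adjusted p of 0.102. The size was nearly the same with the GC offset (0.24, adjusted p 0.020) and without SCC replicate 1 (0.23, adjusted p 0.026), and both fits called the gene.

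TIMP2 (ENSG00000035862, chromosome 17, 78852977 to 78925387), a secreted inhibitor, was at 252, 238 and 248 CPM in SCC and at 223, 217 and 214 CPM in RCC. The lowest SCC library was above the highest RCC library. Its log2 fold change was 0.18 (SE 0.061, edgeR adjusted p 0.164), 0.11 with the GC offset (0.201) and 0.16 without SCC replicate 1, the single fit that called it (0.037). CEP295NL, on the same strand within TIMP2, shares 3.52% of the TIMP2 exon bases and had 5 to 16 counts per library against 3824 or more for TIMP2.

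TIMP1 (ENSG00000102265, chromosome X, 47582313 to 47586789), a secreted inhibitor that binds most MMPs but the membrane-type ones only weakly, was at 68.5, 64.7 and 63.9 CPM in SCC. In RCC it was at 58.5, 61.0 and 61.0 CPM. The gap between the lowest SCC and the highest RCC library was smaller than the range within SCC. The log2 fold change of 0.13 (SE 0.070) was not called (edgeR adjusted p 0.333). With the GC offset it was -0.01 (adjusted p 0.962), so its direction depended on that offset. TIMP1 lies within SYN1 on the opposite strand and TIMP3 within SYN3, and neither pair shares exon bases.

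**Figure D3:**
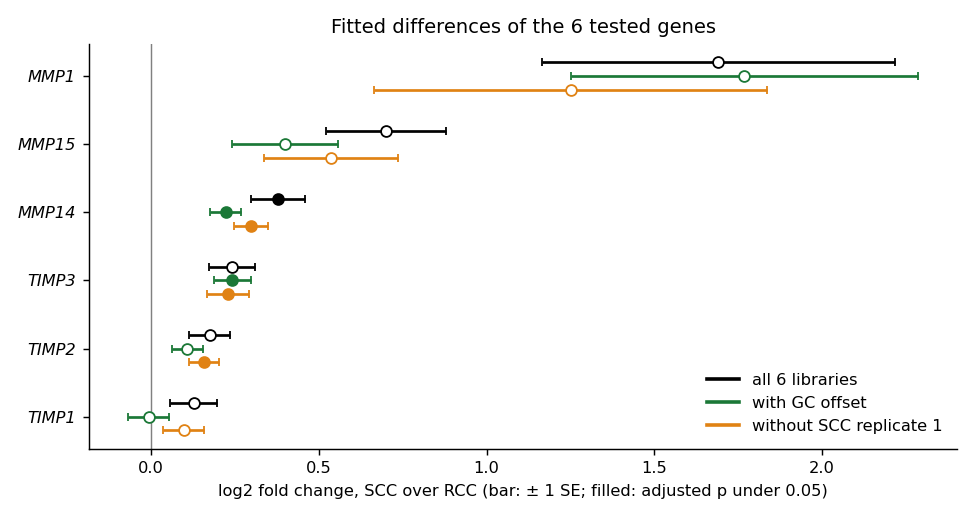
Log2 fold change of SCC over RCC (x axis, ± 1 standard error) for the 6 tested genes with all libraries (black), with the GC offset (green) and without SCC replicate 1 (orange); filled points have an adjusted p under 0.05. MMP14 is filled in all 3 fits, and TIMP1 moves from 0.13 to -0.01 with the GC offset.

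The interstitial collagenases, which cleave the triple helix of fibrillar collagen, were at low level. MMP1 (ENSG00000196611, chromosome 11, 102789920 to 102798160) had 49, 17 and 20 counts in SCC and 7, 3 and 13 counts in RCC. These correspond to 1.82, 0.869 and 0.949 CPM in SCC and to 0.304, 0.143 and 0.727 CPM in RCC. SCC replicate 1 and RCC replicate 3 were the highest of their groups, and RCC replicate 3 lay close to the lowest SCC library. The exact 95% Poisson intervals, which cover counting error only, overlapped between SCC replicate 2 (0.506 to 1.39 CPM) and RCC replicate 3 (0.387 to 1.24 CPM). The log2 fold change of 1.69 (SE 0.53), the highest of the 6, was not called (edgeR adjusted p 0.129). The fit of all genes with any count called it (adjusted p 0.011). Without RCC replicate 3 the log2 fold change was 2.40 (adjusted p 0.139), and without SCC replicate 1 it was 1.25 (0.238).

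MMP13 (ENSG00000137745, chromosome 11, 102942995 to 102955734), the other collagenase, had 16, 11 and 10 counts in SCC and 5, 2 and 2 counts in RCC. Its level was 0.543 ± 0.062 CPM (SD, n = 3) in SCC against 0.142 ± 0.066 in RCC, and the groups did not overlap. The exact 95% Poisson intervals did overlap between SCC replicate 3 (0.227 to 0.872 CPM) and RCC replicate 1 (0.071 to 0.507 CPM). RCC replicates 2 and 3, with 2 counts each, lay under a floor of 3 counts. MMP13 fell under the count filter of the main test. The two-sided exact permutation p of its CPM was 0.1, the smallest that 3 against 3 libraries allow, and 0.4 after Benjamini-Hochberg adjustment over the 4 genes tested this way. In the fit of all genes with any count, the log2 fold change of MMP13 was 1.88 (SE 0.71, edgeR adjusted p 0.148).

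MMP3 (ENSG00000149968, chromosome 11, 102835801 to 102843803) encodes stromelysin-1, which cuts many matrix proteins and activates other MMP proenzymes. It had 8, 4 and 20 counts in SCC and 2, 8 and 10 in RCC. The highest library was SCC replicate 3, and the other SCC libraries lay within the RCC range (exact permutation p of CPM 0.7). The non-coding gene WTAPP1 lies on the opposite strand to MMP1 and MMP3 and shares 7.61% and 1.56% of their exon bases. It had 7 counts in RCC replicate 1 and at most 1 elsewhere, and whether counting used strand is not given in the sources used here.

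The gelatinases, which degrade denatured collagen and type IV collagen of basement membranes, were close to the limit of detection. MMP2 (ENSG00000087245, chromosome 16, 55389700 to 55506691) had 6, 0 and 3 counts in SCC and 7, 6 and 3 in RCC. The groups overlapped (exact permutation p of CPM 0.2). MMP9 (ENSG00000100985, chromosome 20, 46008908 to 46016561) had 3, 0 and 3 counts in SCC and 0 in each RCC library. At a floor of 3 counts per library, the RCC libraries allow a level of up to 0.130, 0.143 and 0.168 CPM, and the SCC libraries were at or under 0.142 CPM. A difference in MMP9 was therefore not detectable at this depth (exact permutation p of CPM 0.4). SLC12A5-AS1, on the opposite strand, shares 18.4% of the MMP9 exon bases and had at most 1 count per library. Whether this overlap lowered the MMP9 counts was not tested. PTPRC, a leukocyte marker, was at 1.97 CPM in SCC replicate 1, 0.26 in SCC replicate 2 and 0.71 in SCC replicate 3, and at 0.14 to 0.56 CPM in RCC. It is 1 of 12 leukocyte markers, and not all of them followed its pattern. CD79A averaged 0.056 CPM in SCC and 0.305 in RCC, and CD3D 0.110 and 0.114, while the other markers had higher means in SCC. LYZ and TYROBP were at 0 CPM in SCC replicates 2 and 3. The part of the leukocyte markers in the MMP9 counts was not tested.

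MMP14 made up 95.2% to 96.2% of the summed FPKM of the 7 MMPs in SCC and 96.5% to 97.4% in RCC. The ratio of MMP14 to TIMP2 FPKM was 1.30, 1.11 and 1.19 in SCC replicates 1 to 3 and 1.01, 1.04 and 1.08 in RCC. The summed MMPs over the summed TIMPs gave 0.594, 0.50 and 0.553 in SCC and 0.463, 0.460 and 0.480 in RCC. In both ratios the SCC libraries lay above the RCC libraries. The lowest SCC ratio was close to the highest RCC ratio, and the highest was in SCC replicate 1. These FPKM ratios carry no GC offset. With it, the fitted log2 fold changes of MMP14 and TIMP2 were 0.22 and 0.11, against 0.38 and 0.18 without it.

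**Figure D4:**
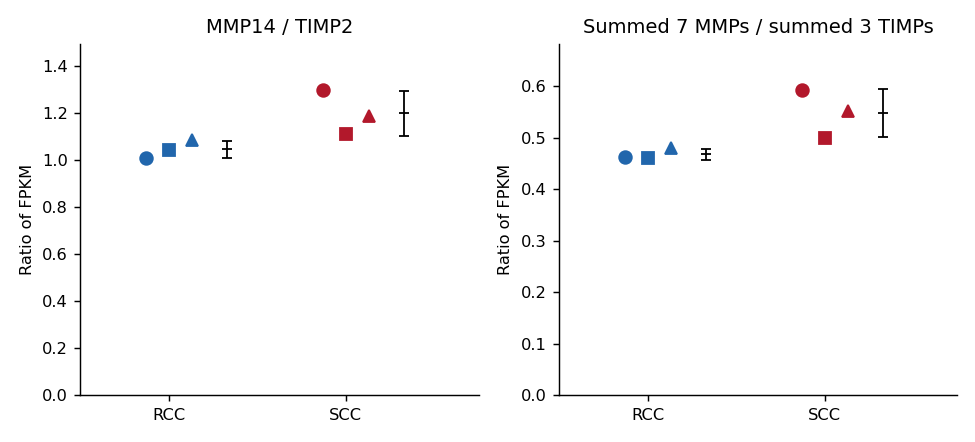
Ratio of FPKM values per library, MMP14 over TIMP2 (left) and the 7 MMPs over the 3 TIMPs (right), with mean ± SD over 3 libraries and y axes from 0. Ratios run from 1.01 to 1.08 in RCC and from 1.11 to 1.30 in SCC on the left, and from 0.460 to 0.480 and 0.50 to 0.594 on the right.

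Among tested genes with a mean of at least 5 CPM, those whose log2(CPM + 1) over the 6 libraries was most like that of MMP14 were ITPRIP (Pearson r 0.996), WNT7B (0.995) and PDLIM1 (0.995). These correlations describe 6 libraries that include the group difference and the GC difference of SCC replicate 1, and 305 of 10909 genes had an r above 0.95. The edgeR adjusted p values of these genes were 0.063, 0.086 and 0.265.

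The remaining metalloproteinase genes were measured in the same libraries. Of 17 other genes of the family (16 MMPs and TIMP4), 7 were tested and 0 were called in either direction by edgeR or DESeq2, while 1 was higher and 0 lower before adjustment (p under 0.05; 11.4% of all tested genes were higher). Their median log2 fold change was 0.02, against 0.00 over all tested genes. The gene with the smallest p was MMP17, a membrane-type enzyme with a lipid anchor, with 1.26 ± 0.29 CPM in SCC against 0.602 ± 0.19 in RCC (SD, n = 3). Its edgeR adjusted p was 0.162. TIMP4 had mean levels of 8.41 CPM in SCC against 8.28 in RCC, while MMP7, MMP26 and MMP27 had no count in any library.

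The related ADAM proteases, which shed proteins from the cell surface, gave 9 tested genes of 11, with 0 called by edgeR or DESeq2 and, before adjustment, 1 higher and 0 lower (p under 0.05). Their median log2 fold change was -0.06. For ADAM15, the smallest p, the fitted log2 difference was 0.27 (edgeR adjusted p 0.158), and 0.02 with the GC offset. Of 19 ADAMTS genes, secreted proteases with thrombospondin repeats, 11 were tested, 1 was called higher and 0 lower. Of all tested genes, 1.69% were called higher and 0.378% lower. The median log2 fold change of the 11 was 0.16, or -0.03 without SCC replicate 3. The called gene was ADAMTS1, which cuts proteoglycans such as versican, at 11.7 ± 0.41 CPM in SCC and 6.84 ± 0.88 in RCC (log2 fold change 0.77, adjusted p 0.013). The call was lost when RCC replicate 1 (adjusted p 0.102) or 3 (0.083) was left out, and in the 3 limma fits (0.105 to 0.302).

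Of 20 genes whose products activate, anchor, bind or clear MMPs, 17 were tested, 1 was called higher and 0 lower. Among all tested genes 1.69% were called higher and 0.378% lower. The median log2 fold change of the 17 was 0.08. The called gene was LRP1, an endocytic receptor that takes up MMPs and TIMPs, at 79.7 ± 14.4 CPM in SCC and 49.6 ± 2.80 in RCC (log2 fold change 0.69, edgeR adjusted p 0.012). Leaving out RCC replicate 1, 2 or 3 ended this call (adjusted p 0.082, 0.085 and 0.071), as did the 3 limma fits (0.089 to 0.303). Without SCC replicate 1 there were 4 genes of this list called higher, in a fit that called 3.93% of all tested genes higher.

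All 21 genes for transcription factors known to act on MMP promoters were tested. Of these 7 were called higher and 0 lower, while 1.69% and 0.378% of all tested genes were. Because the gene lists were chosen with earlier results of these data known, this count is not a test of enrichment. The median log2 fold change of the 21 was 0.21, or 0.10 without SCC replicate 1. FOS averaged 106 ± 10.4 CPM over SCC libraries against 12.2 ± 0.28 over RCC libraries, FOSB at 110 ± 21.7 and 3.55 ± 0.26, ATF3 at 23.6 ± 1.70 and 3.32 ± 0.73, and EGR1 at 235 ± 52.2 and 64.0 ± 3.30 (SD, n = 3). Without SCC replicate 1, 9 genes of this list were called higher and 2 lower. Of all 16324 genes tested in that fit, 3.93% were called higher and 343 genes lower. Of 16 cytokines and growth factors that induce MMPs, 12 were tested, 2 were called higher and 0 lower, and the median was 0.23. These were CXCL8, a chemokine, at 54.2 ± 13.4 and 12.3 ± 2.74 CPM, and the cytokine IL6 at 2.91 ± 0.32 and 0.926 ± 0.26 CPM. With the GC offset and without SCC replicate 1, fits that called 3.29% and 3.93% of all tested genes higher, 5 were called higher. Only 1 was called without RCC replicate 1 or 2, since IL6 was then lost (adjusted p 0.092 and 0.068). In limma without a filter neither was called (CXCL8 0.073, IL6 0.171), and IL6 was also lost in limma on log2(FPKM + 0.1) (0.072).

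Of 27 genes for matrix proteins that MMPs cleave or that lie beside their substrates, 22 were tested. Of these 4 were called higher and 0 lower, while 1.69% and 0.378% of all tested genes were. This list, too, was chosen with earlier results known, so the count is no test of enrichment. The median log2 fold change of the 22 was 0.27, or 0.13 with the GC offset. FN1, the gene of fibronectin, averaged 676 ± 25.9 CPM over SCC libraries against 482 ± 13.8 over RCC libraries, a log2 difference of 0.49 (edgeR adjusted p 0.0017). The collagen VI genes COL6A1 and COL6A2 had log2 fold changes of 0.53 and 0.80 (adjusted p 0.016 and 0.0051), which were 0.30 and 0.50 with the GC offset. The COL6A1 call was lost with RCC replicate 1, 2 or 3 left out (adjusted p 0.113, 0.107 and 0.078) and in the 3 limma fits (0.080 to 0.265), and that of COL6A2 in limma without a filter (0.201). The summed fibroblast markers were also higher in the SCC libraries, by the ranges given above. COL1A1 (13.4 CPM in SCC, 9.49 in RCC), itself among the 27 matrix genes, and PDGFRB (11.5 and 10.7) made up most of that sum. Of the rest, COL3A1, PDGFRA and FAP had lower means in SCC and DCN, LUM and THY1 higher ones, each at most 0.344 CPM. The part of the fibroblast markers in the matrix genes was not tested.

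**Figure D5:**
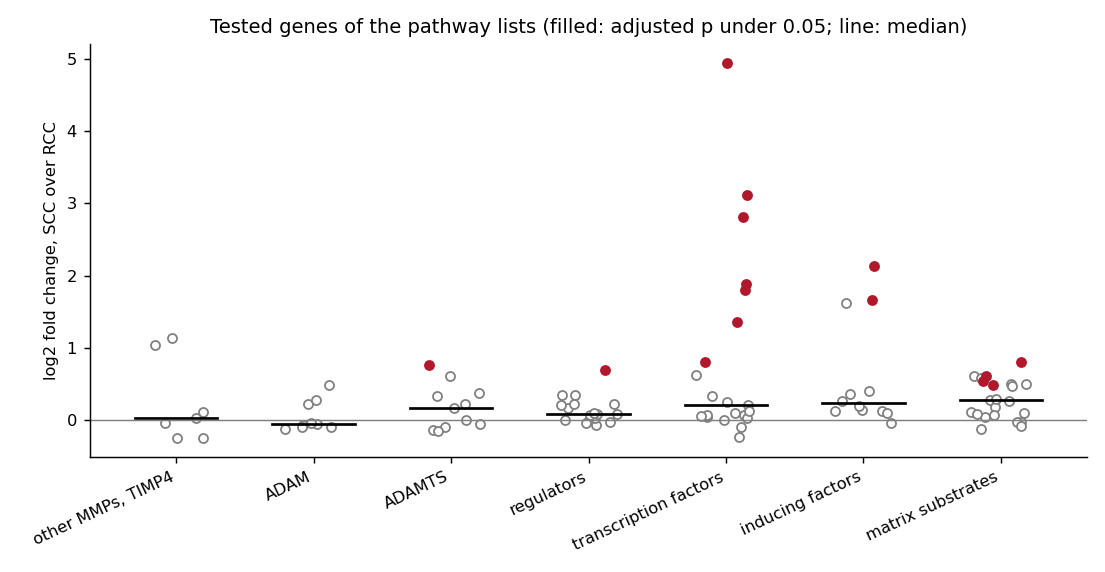
Log2 fold change of SCC over RCC for the tested genes of the 7 pathway lists (points; filled red where the adjusted p was under 0.05, black line at the median). Called genes were all higher: 7 transcription factors, 4 matrix genes, 2 inducing factors, 1 ADAMTS gene and 1 regulator.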

How the data were processed

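Total RNA (TRIzol) was sequenced from NEBNext Ultra libraries, per the labels' protocols. HISAT2 2.0.5 and featureCounts 1.5.0-p3 are named in the submitters' processing notes; the build, annotation and strand setting are not given in the sources used here. The authors deposited a table of raw counts and a table of FPKM. Each deposited FPKM equalled the count per gene length and per library constant (0.983 to 1.02 times the summed count). All 58735 rows had the positions of GENCODE release 29 (GRCh38).

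Counts were filtered with filterByExpr (minimum count 10), scaled by TMM and tested with edgeR 4.0.16 (quasi-likelihood F test, two-sided) in R 4.3.3. CPM values use TMM-scaled totals. Fold changes are SCC over RCC. The code was tested on simulated data. Alternatives used DESeq2 1.42.0, limma 3.58.1 on log2(FPKM + 1) or log2(FPKM + 0.1), other scalings and filters, a replicate block, left-out libraries and a GC offset (loess on transcript GC content, span 0.3, 15874 of 15881 genes). Intervals and floors cover counting error only.

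The 10 genes and the 12 gene lists were chosen with earlier results of these data known. Named from each list were up to 4 called genes with the smallest p, or otherwise the gene with the smallest p; markers and other genes named were chosen after their values were seen. Marker lists had 0 called genes by edgeR and DESeq2, with 1 leukocyte and 1 fibroblast gene higher before adjustment (p under 0.05). One gene that this rule names is not reported here.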

Additional observations from a re-analysis of the deposited data

How the results depend on the processing

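Of the 10 genes, 1 was called higher in the main test; DESeq2 called 2, the GC offset 2, the replicate block with the GC offset 3 (MMP1, adjusted p 0.032, with MMP14 and TIMP3), testing every gene with at least 1 count 3, and limma on log2(FPKM + 1), on log2(FPKM + 0.1) or without a filter 0 each. None of these called any of the 10 lower. Against 268 higher and 60 lower genes in all, the calls were 474 and 182 with DESeq2, 995 and 315 with at least 1 count, 522 and 245 with the GC offset, 632 and 445 with the block and the GC offset, 130 and 36 with limma on log2(FPKM + 1), 117 and 34 on log2(FPKM + 0.1), and 48 and 1 without a filter. Leaving out 1 library in turn gave 0 to 3 of the 10 genes, and 99 to 642 higher and 8 to 343 lower genes in all. These totals are not directly comparable, because the number of genes tested differed between some fits. Genes called higher were 1.69% of 15881 in the main test, 3.38% of 14033 with DESeq2 and 3.29% of 15881 with the GC offset. They were 2.65% of the 37596 genes with at least 1 count. Without SCC replicate 1 or 2 they were 3.93% of 16324 and 3.57% of 16402. Shares for the remaining fits are not given here. What causes the shifts was not tested. Deviations from the group means of same-numbered libraries correlated at -0.01, 0.02 and -0.08, and those of differently numbered libraries at -0.09 to 0.09. With 3 libraries per group this cannot show whether the same number marks a shared culture, which the labels do not state. The replicate block gave 350 higher and 106 lower genes and 1 of the 10. TIMP1 changed sign with the GC offset, without and with the block (-0.0078 and -0.0078). MMP2, MMP3, MMP9 and MMP13 had 0 to 20 counts per library, which limits the differences that can be detected.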
